A study of Homo sapiens with 4 samples.

Results

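The matrix metalloproteinases (MMPs) and the plasminogen activator system of squamous cell carcinoma cells were examined as 9 genes: the collagenases MMP1 and MMP13, the stromelysins MMP3 and MMP10, the gelatinase MMP9, the membrane-type enzyme MMP14, the urokinase PLAU, its receptor PLAUR and the inhibitor TIMP1. They were taken by gene name from the array design, as 9 of 30982 gene names, and every probe was used (10 of 41000 probes, 37 of 43376 spots). The samples were 2 established squamous cell carcinoma lines, FaDu, derived from a hypopharyngeal tumour, and HSC3, derived from a tongue tumour. Total RNA of cells transfected for 72 h with miR-489 or miR-504 was labelled with Cy5 and hybridised against Cy3-labelled RNA of cells of the same line that had received a control miRNA. The 4 arrays, 1 for each line and miRNA, had no dye swap. The labels do not say whether the control RNA on both arrays of a line came from 1 culture. The p-values of line differences therefore measure only the spread between arrays, which may be technical, and each line stands for itself alone. In the tests of a miRNA's ratio to control, the FaDu and HSC3 arrays served as its 2 replicates, so that spread includes the difference between the lines.

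Secreted MMPs are made as inactive zymogens and cut collagens, laminins and other matrix proteins once their propeptide is removed. MMP14 is anchored in the membrane and activates other MMPs at the cell surface, whereas TIMP1 binds and blocks many of the active enzymes. Urokinase bound to its receptor PLAUR turns plasminogen into plasmin, which degrades fibrin and can activate several pro-MMPs. Carcinoma cells and the cells around them both produce these proteins during invasion of squamous tissue.

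The mature sequences of the transfected miRNAs are shown because the arrays compare their transfectants. The labels do not name the arm, so both listed arms of miR-504 are given. They were copied from RefSeq (GRCh38.p14, 5′ to 3′), and capitals mark the seed, bases 2 to 8. No seed is shared between the 3 sequences.
hsa-miR-489-3p: gUGACAUCacauauacggcagc
hsa-miR-504-5p: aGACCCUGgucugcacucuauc
hsa-miR-504-3p: gGGAGUGCagggcaggguuuc

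Signals are given below as the median spot intensity minus the median local background, always with the FaDu pair first and, within a line, miR-489 before miR-504. Between 58.2% and 59.2% of spots were well above background in Cy3, and between 61.2% and 62.6% in Cy5. None of the spots of the 9 genes was marked as an outlier or saturated (0 spots). The squamous cytokeratins KRT5, KRT14 and KRT17 and the epithelial cadherin CDH1, the squamous markers found on the array (4 of 7), were well above background on each array. Of 7 fibroblast markers, 0 to 2 were well above background per array, with a summed Cy3 signal of 105 to 159.5 in FaDu and 151.5 to 191.8 in HSC3. Of 5 leukocyte markers, CD14 and CD68 were, and PTPRC, ITGAM and CD3E were not; their sum was 398.7 to 631.5 in FaDu and 818.9 to 981 in HSC3. Of 3 endothelial markers 0 to 1 were well above background, with a sum of 73.22 to 98.26 in FaDu and 63.13 to 68.48 in HSC3. The part of such signals in the line differences was not tested.

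In control transfectants, HSC3 cells carried more RNA of urokinase, of its receptor and of 3 of the 6 MMPs than FaDu cells. MMP9, MMP1, MMP14, PLAU and PLAUR were lower in FaDu, and MMP13 was higher. MMP3, MMP10 and TIMP1 did not pass the test. By limma with Benjamini-Hochberg adjustment at 0.05 over all probes tested, 6 of 9 genes were called, 5 of them lower in FaDu, where 49.3% of all probes were called and 21.5% were called lower. The median log2 difference, FaDu minus HSC3, was −1.90 for the 9 genes and 0.08 for all probes. In RNA of a whole culture, fewer expressing cells and less RNA per cell cannot be told apart.

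**Figure D1:**
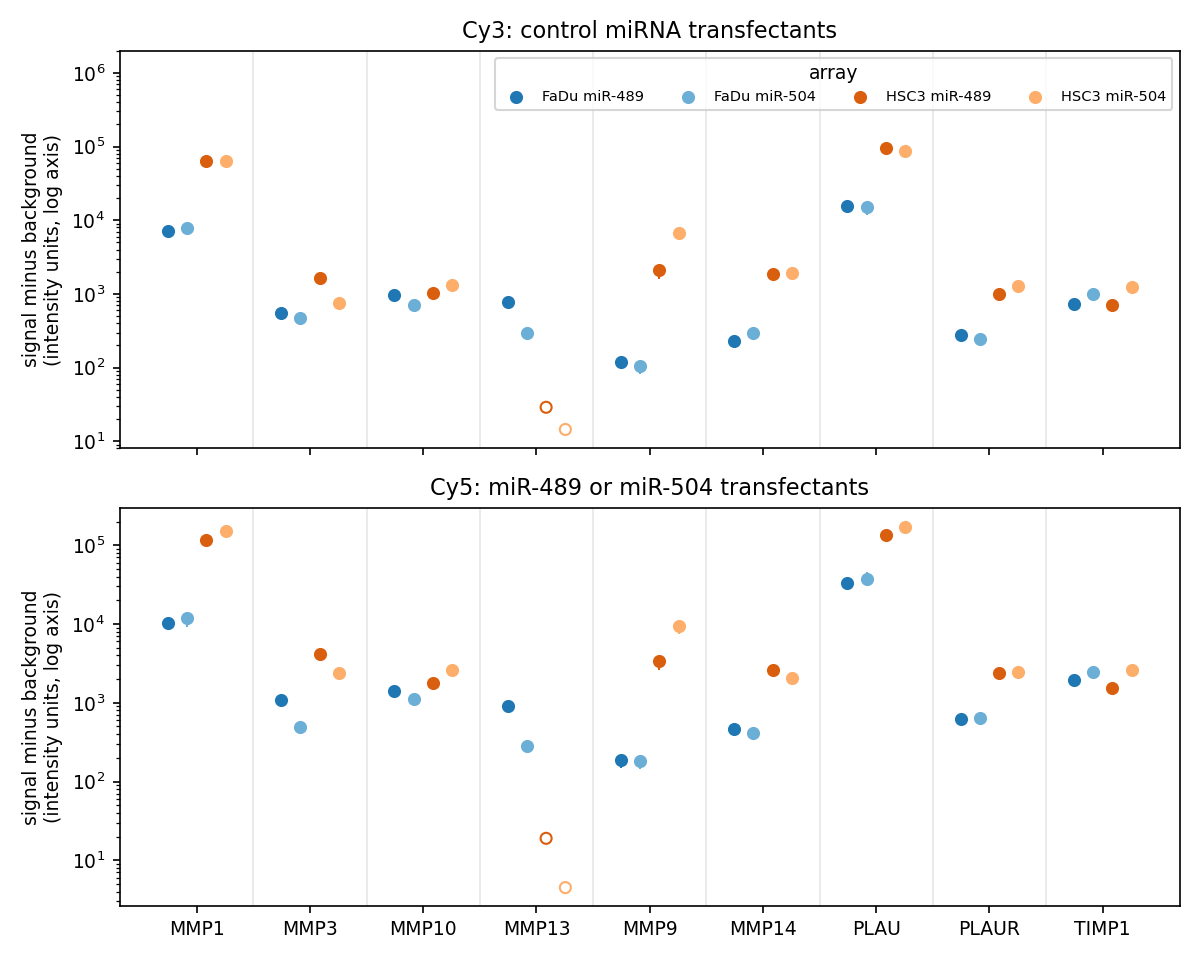
Background-subtracted signal of each gene on each array (log axis), with Cy3 above and Cy5 below. Points are the brightest probe of each gene (medians of 10 spots for MMP1, MMP9 and PLAU, with bars for the lowest and highest spot), and open circles were not well above background. MMP1, MMP3, MMP9, MMP10, MMP14, PLAU and PLAUR lie higher on both HSC3 arrays than on both FaDu arrays, by the least for MMP10, and MMP13 lies lower.

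MMP1, the interstitial collagenase, gave Cy3 signals of 7156, 7897, 62920 and 63230. The FaDu arrays lay close together, as did the HSC3 arrays, and the lines did not overlap. The log2 difference was −2.88 (SE 0.17, n = 2 arrays per line, adjusted p = 0.00014), a 7.37-fold lower level in FaDu. A second MMP1 probe was not well above background on any array, and when both probes were averaged the difference was −1.38.

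MMP13, which like MMP1 cleaves fibrillar collagen, ran the other way. Its Cy3 signals were 788, 291, 29 and 14.5, of which both HSC3 values were not well above background. The HSC3 level is only a bound. Each dim signal was raised to the lowest signal well above background on its array where it was below it, and otherwise kept. A fold against such a group is given as at least that size, for the stated processing only. On this centred scale MMP13 was at least 20.5-fold higher in FaDu in Cy3, and at least 35.5-fold by the same bound after loess and Aquantile normalisation. The log2 difference was 4.36 (SE 0.45, adjusted p = 0.000764), between a mean log2 level, relative to the array's median, of 0.49 in FaDu and −3.86 in HSC3. Its size depended on the processing, from 2.76 without background subtraction to 5.69 after loess and Aquantile normalisation, and was 3.65 without the FaDu miR-489 array and 5.07 without the FaDu miR-504 array. Both collagenases were thus well above background in FaDu, and in HSC3 MMP1 was and MMP13 was not.

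MMP9, the gelatinase that cuts denatured collagen and type IV collagen, had Cy3 signals of 119, 104.2, 2089 and 6664. Both FaDu values were far below both HSC3 values, and the HSC3 arrays were not alike. The log2 difference was −4.76 (SE 0.44, adjusted p = 0.000542), or 27.0-fold lower in FaDu. It was −5.48 without the HSC3 miR-489 array and −4.03 without the HSC3 miR-504 array.

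The stromelysins did not pass the test in Cy3. MMP3 gave Cy3 signals of 558, 470, 1636 and 764. Each HSC3 value exceeded each FaDu value, but the log2 difference of −0.91 (95% interval −1.92 to 0.10) had an adjusted p of 0.117. It was −1.59 without the HSC3 miR-504 array (adjusted p = 0.0012) and −0.23 without the HSC3 miR-489 array (adjusted p = 0.371), and MMP3 passed with the miRNA of the other channel as a block (adjusted p = 0.0266). For MMP10 the signals were 971, 716, 1035 and 1317, again without overlap, and the log2 difference was −0.27 (95% interval −0.73 to 0.19, adjusted p = 0.283). Of the 9 genes, MMP3 and MMP10 therefore had line differences in Cy3 that fell on the same side as MMP1 without passing the threshold.

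MMP14, the membrane-anchored activator, gave Cy3 signals of 232.5, 293.5, 1878 and 1902. The lines did not overlap, and FaDu was 6.22-fold lower (log2 difference −2.64, SE 0.19, adjusted p = 0.000255). PLAU, the urokinase, gave 15490, 15090, 96650 and 88480, a 5.14-fold lower level in FaDu (−2.36, SE 0.18, adjusted p = 0.000313). Its receptor PLAUR gave 273.5, 246, 998 and 1276, a 3.74-fold lower level in FaDu (−1.90, SE 0.15, adjusted p = 0.00036). The protease and its receptor thus differed between the lines in the same direction. TIMP1 gave 732.5, 1014, 715 and 1227, so that the lines overlapped, and its log2 difference was 0.10 (95% interval −0.51 to 0.70, adjusted p = 0.764). The sign of the TIMP1 difference changed in 2 of 15 alternative analyses.

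The Cy5 channel measured the line difference again, in RNA of the miRNA transfectants. There 7 of 9 genes were called, 6 of them lower in FaDu, where 46% of all probes were called and 20% were called lower. The same 5 genes as in Cy3 were lower, by log2 differences of −4.73 for MMP9, −3.46 for MMP1, −2.26 for MMP14, −1.93 for PLAU and −1.81 for PLAUR. MMP3 was also called: its Cy5 signals were 1071, 496, 4208 and 2357, and its log2 difference was −1.97 (SE 0.16, adjusted p = 0.00633). The Cy5 fit held the miRNA beside the line, whereas the Cy3 fit held the line alone. With the miRNA as a block MMP3 passed in Cy3 too (adjusted p = 0.0266), so the counts of the 2 channels rest on unlike fits. MMP13 was called higher in FaDu in Cy5 (adjusted p = 0.00375), with signals of 913, 281, 19 and 4.5, the last pair not well above background. Its fold was 46.7 on the centred scale, and the bound was 26.9-fold after loess and Aquantile normalisation. The log2 difference depended on the processing, from 3.05 with normexp to 5.55. Neither MMP10 (−0.63, 95% interval −1.43 to 0.18) nor TIMP1 (0.27, 95% interval −0.26 to 0.79) passed the test in Cy5.

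**Figure D2:**
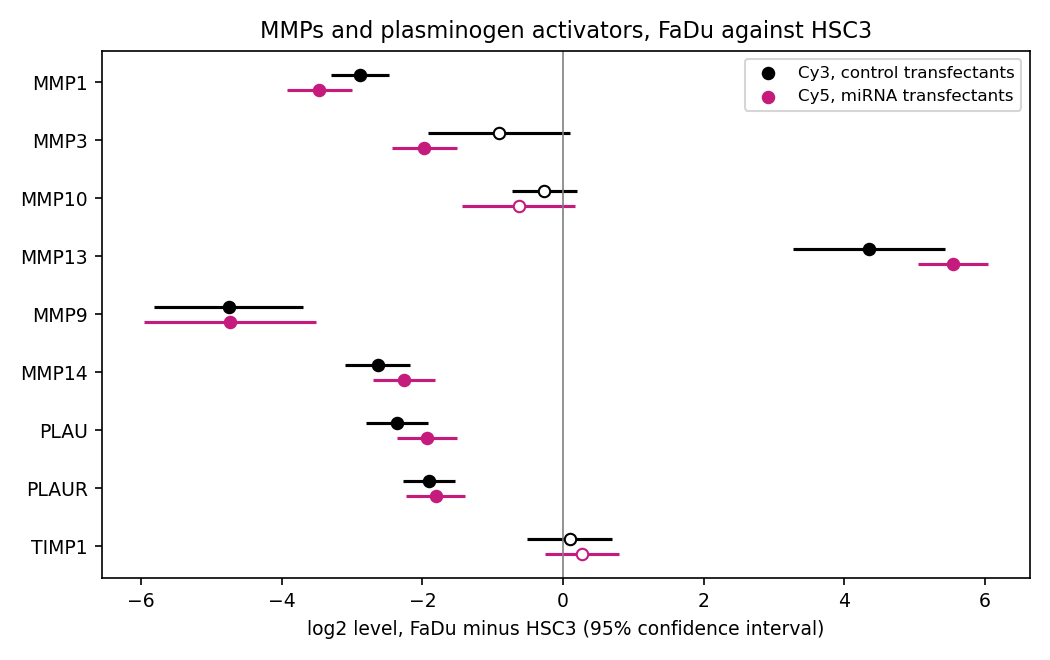
Log2 level in FaDu minus HSC3 for each gene in Cy3 (black, control transfectants) and Cy5 (pink, miRNA transfectants), with 95% confidence intervals from limma. Filled points passed an adjusted p of 0.05. Of the 9 genes, MMP13 alone was called higher in FaDu, and the MMP13 values rest on HSC3 signals that were not well above background.

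On chromosome 11 the RefSeq annotation (GRCh38.p14) places MMP10, MMP1, MMP3, MMP12 and MMP13 in this order, next to one another among the MMP genes. Along this order the Cy3 line difference was −0.27 for MMP10, −2.88 for MMP1, −0.91 for MMP3, 2.997 for MMP12 and 4.36 for MMP13, so that the called genes of the cluster ran in both directions. MMP12, the macrophage elastase, had signals of 334.5, 178, 46 and 27.5, the last not well above background, and its difference passed the test (adjusted p = 0.00195). MMP7, the matrilysin, which the annotation also places there, was dim on both HSC3 arrays and was at least 3.87-fold higher in FaDu in Cy3 (adjusted p = 0.00247; 5.65-fold after loess and Aquantile normalisation).

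Among the other MMPs, 7 of the 17 on the array could be tested in Cy3, of which 3 were higher and 3 lower in FaDu. Of all probes, 49.3% were called in this test and 21.5% were called lower. The third higher one was the membrane-type MMP15 (log2 difference 1.07), and the lower ones were MMP17 (−0.81), MMP28 (−0.78) and MMP25 (−0.75). The median of the tested genes was −0.61. Genes of this family thus lay on both sides, as MMP1 and MMP13 did.

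Inhibitors and inducers of metalloproteinases also differed between the lines, with 3 lower and 3 higher of 7 tested. The shares of all probes were 49.3% called and 21.5% called lower. TIMP2, an inhibitor that also takes part in the activation of MMP2 by MMP14, had Cy3 signals of 155, 132, 1434 and 1638 and was 9.21-fold lower in FaDu (adjusted p = 8.87e-05). TIMP3, the matrix-bound inhibitor, was at least 6.99-fold lower in FaDu (adjusted p = 0.000104; 9.64-fold after loess and Aquantile normalisation), and the membrane inhibitor RECK differed by −1.74 (adjusted p = 0.00169). TIMP2, TIMP3 and RECK were thus lower in the line with less MMP1, MMP9 and MMP14 RNA, and TIMP1 did not pass. TIMP4 ran the other way. Its Cy3 signals were 61.5, 24.5, 11 and 13, only the first well above background, and were not tested. In Cy5 limma called it higher in FaDu (log2 difference 2.88, adjusted p = 0.00556), with HSC3 dim. Higher in FaDu were the protease inhibitor TFPI2 (1.72), the proprotein convertase FURIN (0.98), which activates pro-MMP14, and BSG (0.61), the MMP inducer EMMPRIN.

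In the plasminogen system, 6 of 12 tested genes were lower and 1 was higher in FaDu, where 21.5% of all probes were called lower. SERPINB2, the plasminogen activator inhibitor PAI-2, had Cy3 signals of 13.5, 26, 1628 and 3086, the FaDu pair not well above background. It was at least 79.6-fold lower in FaDu (adjusted p = 4.45e-05), or 136-fold after loess and Aquantile normalisation. The serpin SERPINB8 was 5.14-fold lower in FaDu (adjusted p = 0.000509). SERPINB2 therefore had less RNA in FaDu, as had PLAU and PLAUR. PLG, plasminogen itself, was at least 1.64-fold higher in FaDu (adjusted p = 0.0247), at signals of 49, 42, 34 and 30.5 near the background.

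Among matrix proteins that these proteases cleave or bind, 8 of 11 tested genes were lower in FaDu and 2 were higher. Across all probes 49.3% were called and 21.5% were called lower. SPARC, a collagen-binding matricellular protein, was at least 577-fold lower in FaDu, with Cy3 signals of 14, 10, 14370 and 14150 (adjusted p = 7.36e-06), or 1220-fold after loess and Aquantile normalisation. The matricellular protein TNC was 22.7-fold lower (adjusted p = 0.00208) and the laminin chain LAMA3 21.0-fold lower (adjusted p = 3.31e-05). The basement membrane collagen chain COL4A2 was 27.3-fold higher (adjusted p = 0.000196), and its partner COL4A1 at least 5.53-fold higher (adjusted p = 0.0011). The 2 collagen IV chains thus ran against the other matrix genes that were called.

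Of 12 AP-1 and ETS transcription factors, families known to act on promoters of several MMPs and of PLAU, 5 were lower and 3 higher in FaDu. Here too, 49.3% of all probes were called and 21.5% were called lower. The epithelial ETS factor ELF3 was 13.3-fold higher (adjusted p = 0.000391), FOS 3.51-fold higher (adjusted p = 0.0215) and FOSB 2.31-fold higher (adjusted p = 0.0298). Lower were FOSL2 (log2 difference −1.31), ETS2 (−0.85) and JUN (−0.82). The median of the 12 genes was −0.05.

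The arrays were designed to compare each miRNA transfectant with its control, which asks whether miR-489 or miR-504 lowers or raises an RNA. After each array was centred on its median log2 ratio, MMP3 alone of the genes well above background reached 2-fold, on 1 array. By the 2-fold limit, 0 of 9 genes were higher on the FaDu miR-489 array, 0 on the FaDu miR-504 array and 0 of 8 on the HSC3 miR-489 array, against 2.95%, 2.35% and 2.82% of all probes. On the HSC3 miR-504 array 1 gene, MMP3, was higher, against 1.95% of all probes. Among genes with Cy3 well above background, none was lower by 2-fold on any array (0 of 9 in FaDu and 0 of 8 in HSC3, where MMP13 was not well above background), while 7.96%, 5.44%, 7.45% and 4.55% of all probes were lower. These per-array counts have no replicate and no test, and 9 genes are too few to set against shares this small.

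**Figure D3:**
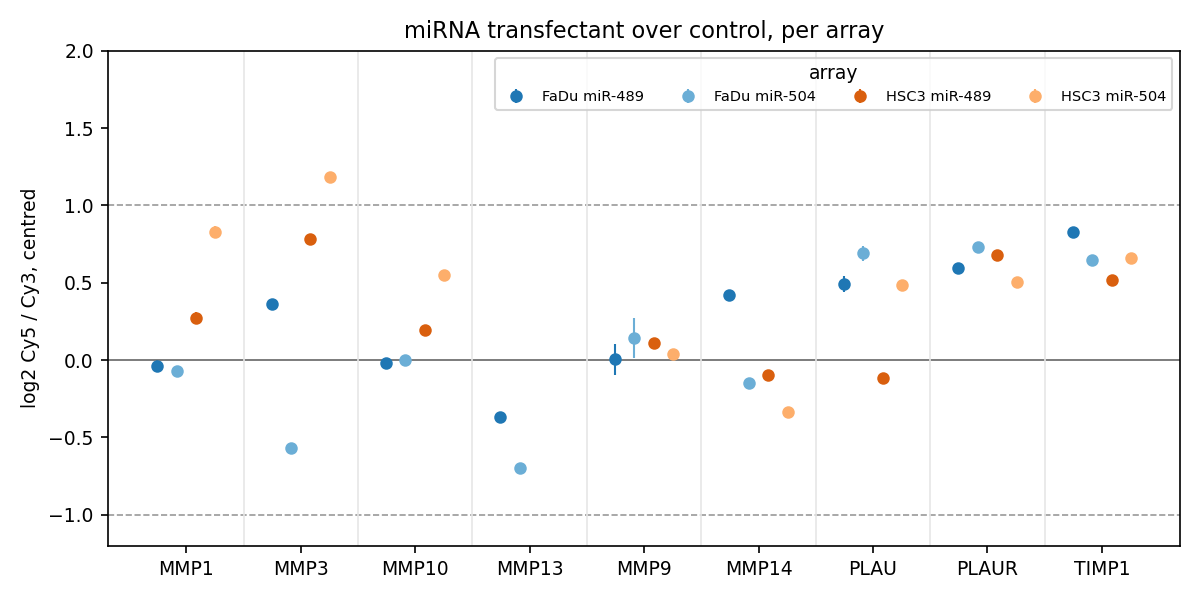
Centred log2 ratio of Cy5 (miR-489 or miR-504) over Cy3 (control) for each gene on each array, with the SD of 10 spots as bars for MMP1, MMP9 and PLAU. Dashed lines mark 2-fold. PLAUR and TIMP1 lie above 0 on 4 of 4 arrays, and MMP13 is shown for FaDu only because both HSC3 signals were not well above background.

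PLAUR and TIMP1 were called higher with both miRNAs. The PLAUR log2 ratios were 0.60, 0.73, 0.68 and 0.51, all above 0. Over the 2 lines its mean was 0.64 for miR-489 (SE 0.09, adjusted p = 0.00375) and 0.62 for miR-504 (SE 0.09, adjusted p = 0.00513). The TIMP1 log2 ratios were 0.83, 0.64, 0.52 and 0.66, again all above 0. Its mean was 0.67 for miR-489 (SE 0.10, adjusted p = 0.00424) and 0.65 for miR-504 (SE 0.10, adjusted p = 0.00589). Their mean rises were 1.54-fold to 1.60-fold, and no alternative changed the sign of either gene. With no dye swap, a dye effect of the probe cannot be told apart from the transfection in these means.

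PLAU, the ligand of PLAUR, had log2 ratios of 0.49, 0.69, −0.12 and 0.48. It was above 0 on 3 of 4 arrays, and the HSC3 miR-489 value changed sign in 1 of 7 alternatives. PLAU passed the test for miR-504 (0.59, SE 0.16, adjusted p = 0.0306) and not for miR-489 (0.19, adjusted p = 0.354), but the difference between the miRNAs did not pass (−0.40, 95% interval −0.97 to 0.17). The miR-504 call was lost in 6 of 14 alternatives, among them loess normalisation (0.32, adjusted p = 0.185) and the deposited log ratios (0.23, adjusted p = 0.368).

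In all, 2 of 8 genes tested were higher with miR-489, where 57.2% of all probes were called and 30.9% were called higher. With miR-504, 3 of 8 were higher, where 49.8% of all probes were called and 26.7% were called higher. MMP13 was not tested, since HSC3 gave no ratio. The shares called higher lie near those of all probes, and 0 of 8 genes were called lower with either miRNA. The squamous keratins KRT5, KRT14 and KRT17 were higher by similar or larger amounts, with mean log2 ratios of 0.72, 0.84 and 0.90 for miR-489 and 0.67, 0.79 and 0.89 for miR-504; their part in the result was not tested. The other squamous marker on the array, CDH1, had −0.05 with miR-489 and was called lower with miR-504 (−0.49, adjusted p = 0.00831). Leaving out an array changed some calls for miR-504. PLAUR had an adjusted p of 0.0678 and TIMP1 of 0.0644 without the FaDu miR-504 array, and TIMP1 had 0.0635 without the HSC3 miR-504 array.

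The MMPs did not move as a group. MMP3 had log2 ratios of 0.36, −0.57, 0.79 and 1.19, which is lower than control only in FaDu with miR-504 and 2.28-fold higher in HSC3 with miR-504. MMP1 had ratios of −0.04, −0.07, 0.27 and 0.83, near 0 in FaDu and above 0 in HSC3, but with miR-489 the HSC3 value changed sign in 4 of 7 alternatives and the FaDu values in 2 and 1. MMP10 had −0.02, −0.002, 0.19 and 0.55, of which the FaDu values changed sign in 3 and 2 of 7 alternatives. The 3 genes are neighbours on chromosome 11, and each had its highest ratio of the 4 on the HSC3 miR-504 array.

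MMP9 stayed between 0.01 and 0.14 on the 4 arrays, so that its large line difference was present in both channels alike. MMP13 was below control in FaDu, at −0.37 with miR-489 and −0.70 with miR-504. MMP14 had 0.42, −0.15, −0.10 and −0.34, below 0 on 3 of 4 arrays (the HSC3 miR-489 value changed sign in 1 of 7 alternatives), and passed the test for neither miRNA (adjusted p = 0.362 and 0.206). Over the genes measured on each array, the median ratio was 0.36, −0.002, 0.23 and 0.53. It was −0.03 to −0.01 for all genes on the array with Cy3 well above background, each by its brightest probe.

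No difference between the miRNAs passed the test. For miR-489 minus miR-504 limma called 0 of 8 genes, where 1.06% of all probes were called. An unadjusted p under 0.05 was found for 0 of 8 genes and for 18.5% of all probes. The log2 differences ran from −0.40 for PLAU to 0.41 for MMP14 (95% interval −0.10 to 0.92). With 2 arrays per miRNA the intervals are wide, that of MMP3 reaching from −1.18 to 1.71.

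The ratios were also compared between the lines. For FaDu minus HSC3 limma called 0 of 8 genes and 0% of all probes, with an unadjusted p under 0.05 for 4 of 8 genes and 7.37% of all probes. These were MMP3 (−1.09, 95% interval −1.90 to −0.28), MMP1 (−0.61, −1.06 to −0.15) and MMP10 (−0.39, −0.75 to −0.02), all lower in FaDu, and PLAU (0.41, 0.03 to 0.79), which was higher. Their adjusted p ranged from 0.579 to 0.653.

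Genes around the protease system were tested with the same fit. In the tests of each miRNA, 57.2% of all probes were called with miR-489 and 49.8% with miR-504, and 30.9% and 26.7% were called higher. Of 4 tested inhibitors and inducers, miR-489 gave 1 lower and 3 higher. FURIN, the activator of pro-MMP14, had a miR-489 log2 ratio of −0.80 in FaDu and −1.77 in HSC3. Its mean was −1.29 (adjusted p = 0.00673). The Cy3 signals of FURIN were low, at 90, 102, 44.5 and 71.5, and the lowest was on the HSC3 miR-489 array, which had the largest fall. With no dye swap, a dye effect of its probe cannot be told apart from the transfection. With miR-504 FURIN had −0.63 and −0.51 (adjusted p = 0.0873), and the difference between the miRNAs had an adjusted p of 0.316. Higher with miR-489 were BSG (0.66), TFPI2 (0.47) and TIMP2 (0.43), and with miR-504 BSG (0.65) and TIMP2 (0.43).

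Of 8 tested genes of the plasminogen system, 4 were higher with miR-489 and 3 were higher with miR-504. Among all probes 30.9% and 26.7% were called higher. The plasminogen receptors ANXA2 and ENO1 were among the higher genes with both miRNAs, ANXA2 by 0.65 and 0.54 and ENO1 by 0.55 and 0.41.

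Among the 10 tested AP-1 and ETS factors, 6 were higher and 2 lower with miR-489, and 5 were higher and 1 lower with miR-504. For these and the lists that follow, 57.2% of all probes were called with miR-489 and 49.8% with miR-504. JUND had the highest mean ratio, 0.99 with miR-489 and 1.06 with miR-504, followed by FOS with 0.75 and 0.87. ETS2 was lower with both, at −0.74 and −0.77. ELF3 was lower with miR-489 (−0.74, adjusted p = 0.0299) and did not pass with miR-504 (0.50, adjusted p = 0.0988), the difference having an adjusted p of 0.13. Of 4 other MMPs tested, 0 were called with either miRNA. Of 8 matrix genes, 2 were higher and 2 lower with miR-489, and 3 higher and 1 lower with miR-504.

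The levels of a few genes differed between the arrays of 1 line in both dyes. In HSC3, the MMP9 control level was 2.72-fold higher on the miR-504 array than on the miR-489 array (log2 difference 1.44), although both Cy3 samples are labelled as control transfectants of the same line. The 10 MMP9 spots lay between 1620 and 2173 on the one and between 5343 and 7077 on the other, without overlap. Only 1.93% of all probes differed as much in Cy3. In Cy5 MMP9 was 2.65-fold higher on the same array, so that the ratios of 0.11 and 0.04 differed little.

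MMP3 ran the other way in HSC3: its control level was 2.56-fold lower on the miR-504 array, as large as 2.18% of all probes, and its Cy5 level 1.89-fold lower. In FaDu, the MMP13 control level was 2.67-fold lower on the miR-504 array, as large as 1.51% of all probes, and its Cy5 level 3.41-fold lower. The other genes measured differed by 1.03-fold to 1.43-fold in Cy3. In Cy3, 1 of 9 genes reached 2-fold in FaDu and 2 of 8 in HSC3, where 3.05% and 4.32% of all probes did. In Cy5, 2 of 9 did in FaDu and 1 of 8 in HSC3, where 7.5% and 9.47% of all probes did. These differences between single arrays have no test.

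**Figure D4:**
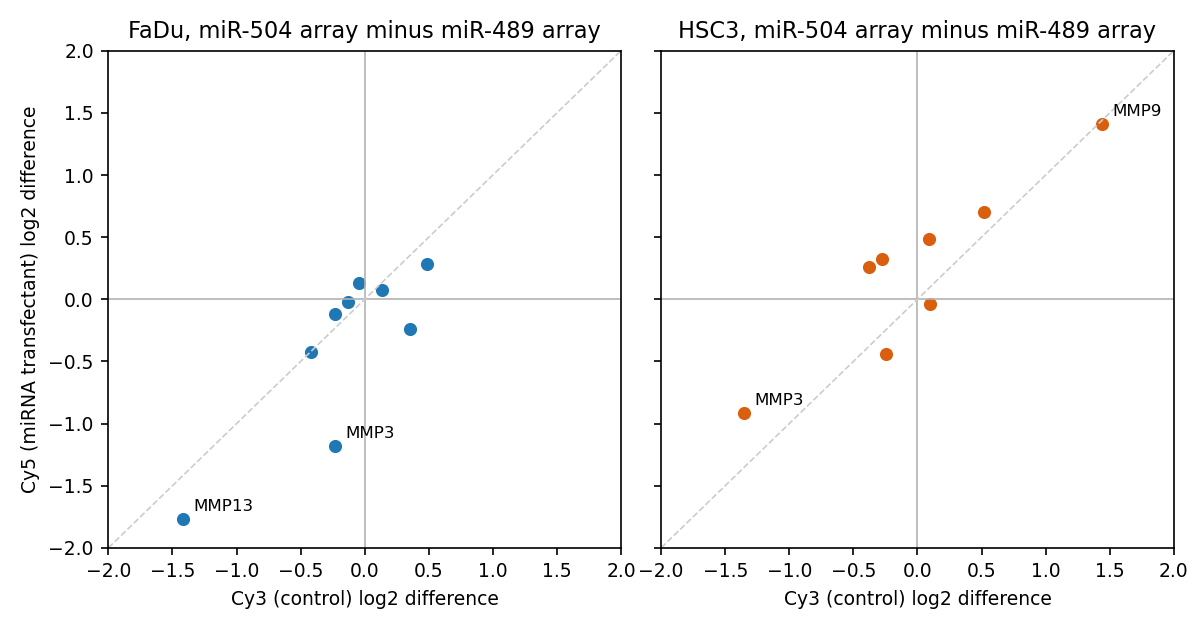
Log2 level on the miR-504 array minus that on the miR-489 array for each gene in FaDu (left) and HSC3 (right), Cy3 on the horizontal and Cy5 on the vertical axis, with the line of equality dashed. Named genes differ by at least 2-fold in 1 dye or both. MMP13 in FaDu, and MMP9 and MMP3 in HSC3, shifted in the same direction in both dyes, and MMP3 in FaDu shifted mainly in Cy5.

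The promoters of PLAUR and TIMP1 are shown because both genes were called higher with both miRNAs. Promoter windows of 300 bases, from 250 before to 50 after the start, were given by RefSeq (GRCh38.p14) for 5 of the 9 genes, MMP10, MMP14, PLAU (2 windows), PLAUR and TIMP1. The letters TGANTCA, an AP-1 motif, and CAGGAAG, an ETS motif, were searched on both strands. The first was held by 7.71% and the second by 12.7% of 35116 windows of this length. PLAUR held TGAGTCA 186 bases and CTTCCTG, the reverse strand of CAGGAAG, 15 bases before its start. TIMP1 held CAGGAAG 88 bases before its start, and MMP10 held TGAATCA 67 bases before its start. These letters were not in the windows of MMP14 and PLAU. The 250 bases before each start are shown, 5′ to 3′ along the gene, with the motif letters in capitals (PLAUR chr19:43670170-43670419, minus strand; TIMP1 chrX:47582186-47582435, plus strand).
PLAUR: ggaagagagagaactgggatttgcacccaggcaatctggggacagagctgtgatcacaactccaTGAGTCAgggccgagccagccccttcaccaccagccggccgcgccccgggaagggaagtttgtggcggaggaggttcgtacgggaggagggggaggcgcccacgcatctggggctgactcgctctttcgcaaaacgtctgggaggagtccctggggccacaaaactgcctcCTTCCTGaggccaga
TIMP1: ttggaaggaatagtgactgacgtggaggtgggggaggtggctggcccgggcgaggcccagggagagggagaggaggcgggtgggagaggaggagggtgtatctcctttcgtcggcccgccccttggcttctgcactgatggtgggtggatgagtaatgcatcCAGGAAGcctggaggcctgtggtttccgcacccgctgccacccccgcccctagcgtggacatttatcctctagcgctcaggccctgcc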

How the data were processed

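The authors deposited scanner output of 4 Agilent 2-colour arrays made with Feature Extraction 9.5.3.1 (per the file headers), holding spot and background intensity as medians and means, not normalised. Beside these values stands a deposited log10 ratio per spot, normalised by that software, to which a deposited value table was identical (largest difference 0). Deposited marks (other values, 0 or 1) gave the filters for outliers and signals well above background.

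The study's methods name log2 ratios of median background-subtracted intensity with global normalisation. Here the median log2 ratio of probes well above background in both channels (0.579, 0.646, 0.577 and 0.44 in the order used above) was subtracted from each array, and levels were centred in each channel. Replicate spots were averaged, and a gene took its brightest probe. Levels were floored at each array's lowest signal well above background. The line differences were fitted with line (Cy3) or line and miRNA (Cy5), and the ratios with miRNA as group means, or with line and miRNA, by limma 3.58.1 in R 4.3.3 with the data.table package (1.17.8), adjusted by Benjamini-Hochberg at 0.05. For the group means, the 2 lines were taken as replicates of a miRNA. The scripts were tested on simulated data. Sequences were handled in Python 3.11.15 and figures drawn with matplotlib 3.10.9 (pandas 2.3.3, numpy 2.4.6).

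The arrays lay on 1 slide, so no slide effect could be fitted. The number of arrays limits the precision. Alternatives were normexp (offset 50), no background subtraction, mean intensity, loess (span 0.3), other scalings, the deposited log10 ratios, other filters and thresholds, blocks and leaving out each array. Loess followed by Aquantile, and the comparison of arrays within a line, were chosen after seeing the data. The genes and lists were chosen with earlier results of these data known. Named genes of the lists were at most 3 per direction with the largest fold among those called, and TIMP4, which ran against TIMP2 and TIMP3. The files do not state a genome build, so none of their coordinates is given. Protein sequences were not used here. One gene of the plasminogen list is not reported here.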

Additional observations from a re-analysis of the deposited data

Results flagged for a closer look

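MMP1 and MMP10 were noted because their ratios to control lay on opposite sides of 0 in the lines, below 0 on both FaDu arrays and above 0 on both HSC3 arrays. The MMP1 ratios differed by −0.605 on the log2 scale, FaDu minus HSC3, and the MMP10 ratios by −0.385. limma's test of the difference gave adjusted p-values of 0.583 and 0.653, so that neither passed. The sides of 0 depended on the processing: the MMP1 ratio changed sign in 4 of 7 alternatives on the HSC3 miR-489 array, 2 on the FaDu miR-489 array and 1 on the FaDu miR-504 array, and the MMP10 ratio in 3 and 2 of 7 on the FaDu arrays.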

How the results depend on the processing

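The Cy3 line difference called 5 to 7 of the 9 genes over its alternatives, and the Cy5 line difference 6 to 7. With the miRNA of the other channel as a replicate block, 7 were called in Cy3, MMP3 being added. No direction of a called result was reversed. With no filter on dim probes, which tests more probes, the genes called fell from 2 to 1 for miR-489 and from 3 to 0 for miR-504. Calls among all probes fell too. They went from 11953 of 20914 to 8910 of 40981 for miR-489, and from 10410 of 20914 to 5444 of 40981 for miR-504. Leaving out a miR-489 array gave 3 calls for miR-504, and 10979 of 20914 probes were called. Leaving out a miR-504 array left 1 array of miR-504, assumed to vary like the others, so no count is given. The genes called were then not the same as with all arrays. With the cell line as a replicate block, 2, 3 and 0 genes were called for miR-489, miR-504 and their difference, the same numbers as without it, but 376 of all probes were called for the difference against 222. Over the alternatives that difference called 0 to 782 of all probes and the line difference of the ratio 0 to 193. At a limit of 1.5-fold, 2 genes passed in FaDu with miR-489, 2 in HSC3 with miR-489 and 3 in HSC3 with miR-504, all of them higher. In FaDu with miR-504, 4 passed, of which 3 were higher and 1 was lower. At 4-fold 0 passed in HSC3 with miR-504. The shares of all probes at these limits were not counted, so these counts cannot be read as particular to the 9 genes. Without the filter, 1 gene passed in HSC3 with miR-489, MMP13, which was lower (−1.19). With miR-504, 2 passed there, MMP13 as lower (−2.13) and MMP3 as higher. The HSC3 signals of MMP13 were not well above background on either array. The cause of the changes in this paragraph was not tested. Leaving out an array could not be fitted for the Cy5 line difference or the line difference of the ratio, which leave no residual degrees of freedom. MMP13 in HSC3 is limited by its signal near background.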

Other observations

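Over the 4 ratios, the genes closest to MMP3 among 15601 genes were SERPINA1 (Euclidean distance 0.586), SLC6A19 (0.62) and MEIS3P1 (0.666). Closest to TIMP1 were RRBP1 (0.063), ARFGAP1 (0.078) and TIGD5 (0.085), and closest to PLAUR were LY6G5C (0.051), DDX3X (0.056) and DPH5 (0.061). The distances cover 4 arrays only.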
